A study of Mus musculus with 32 samples.

Results

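The genes described here belong to the unfolded protein response of the endoplasmic reticulum (ER) and the ER machinery for protein folding. They form a list of 33 genes, given by name, out of 47643 genes in the count table. The list holds 15 chaperones and folding enzymes, 6 sensors and transcription factors, 2 subunits of the eIF2alpha phosphatase, 8 genes of ER-associated degradation and 2 genes of protein translocation into the ER. Male mice, C57BL/6 in the labels and C57BL/6J in the study's methods, 10 weeks old, received corticosterone (Cort) or vehicle (Veh) for 7 days in their drinking water, on a normal-protein diet (NPD, 20% of kcal from protein) or a high-protein diet (HPD, 60% of kcal). RNA of liver and epididymal white adipose tissue (eWAT) was sequenced in 32 libraries, 4 for each combination of tissue, treatment and diet. By the study's methods, corn starch was reduced in the HPD to match calories, so HPD means more protein together with less carbohydrate. Effects of protein and of carbohydrate cannot be told apart in any diet effect given here. The comparisons ask how cort changes transcripts on each diet and how diet changes them under each treatment. Every gene of the list could be tested in liver, and 32 could be tested in eWAT, where Creb3l3 had almost no counts.

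Secreted and membrane proteins fold in the ER with the help of chaperones such as Hspa5 (BiP) and Hsp90b1 (GRP94), of the lectins Calr and Canx, and of disulfide isomerases. When unfolded proteins accumulate, 3 sensors signal to the nucleus and the ribosome: Ern1 (IRE1) splices the mRNA of the transcription factor Xbp1, Atf6 is cut to release a transcription factor, and Eif2ak3 (PERK) slows translation by phosphorylating eIF2alpha. Their targets include the chaperones themselves and the degradation machinery, which moves misfolded proteins back to the cytosol. Hepatocytes secrete most of the plasma proteins and carry a large ER, and in liver the pathway is known to respond to feeding as well as to stress. The libraries counted 3′ ends of transcripts, so Xbp1 values are totals of its transcripts and do not measure splicing.

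The promoters of the list carry letters that are rare elsewhere. They are shown because part of these genes had their highest levels in the same liver libraries, a pattern that was not tested. Windows of 300 bases, from 250 before to 50 after the annotated start (RefSeq sequence, build GRCm38.p6), were found for 28 of the 33 genes, and not for Hyou1, Manf, Atf6, Ppp1r15b and Derl1. Both strands were searched for the ER stress element ERSE (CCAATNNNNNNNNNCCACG), for ERSE-II (ATTGGNCCACG) and for the core of the unfolded protein response element (TGACGTGG), motifs that do not contain each other. ERSE letters were present in 9 of the 28 genes (32.1%), against 37 of 27025 genes with such a window (0.137%). ERSE-II letters were present in 2 genes (7.14%, against 0.0444% of all genes), and the third motif in 0 (against 0.714%). By role, 8 of 13 chaperones and folding enzymes and 3 of 7 degradation genes held a match, and none of the sensors, phosphatase subunits or translocation genes with a window did. The motifs are known elements of this response and the list was drawn up from its known genes. Their excess in the list is therefore no independent result. A match of letters describes the sequence and is not shown to be a site in use. The windows of Hspa5 (chr2:34771840-34772139, plus strand), Calr (chr8:84846882-84847181, minus strand), Creld2 (chr15:88819396-88819695, plus strand) and Herpud1 (chr8:94386179-94386478, plus strand) follow, 5′ to 3′ on the strand of the gene, with the matched element in capitals. Hspa5 is the classical target, Calr and Herpud1 were lower on HPD under cort, and Creld2 had the widest range among the chaperones within Veh NPD.
Hspa5: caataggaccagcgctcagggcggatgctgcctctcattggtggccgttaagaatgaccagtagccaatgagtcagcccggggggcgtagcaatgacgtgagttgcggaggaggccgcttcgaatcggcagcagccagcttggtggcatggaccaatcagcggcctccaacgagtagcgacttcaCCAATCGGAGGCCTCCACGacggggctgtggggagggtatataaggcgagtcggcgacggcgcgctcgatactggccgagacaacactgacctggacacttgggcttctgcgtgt
Calr: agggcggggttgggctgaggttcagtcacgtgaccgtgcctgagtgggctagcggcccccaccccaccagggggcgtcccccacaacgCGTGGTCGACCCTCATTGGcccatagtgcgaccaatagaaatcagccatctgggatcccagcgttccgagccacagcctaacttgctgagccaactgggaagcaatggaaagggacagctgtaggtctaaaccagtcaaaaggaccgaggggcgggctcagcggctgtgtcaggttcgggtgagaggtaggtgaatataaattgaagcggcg
Creld2: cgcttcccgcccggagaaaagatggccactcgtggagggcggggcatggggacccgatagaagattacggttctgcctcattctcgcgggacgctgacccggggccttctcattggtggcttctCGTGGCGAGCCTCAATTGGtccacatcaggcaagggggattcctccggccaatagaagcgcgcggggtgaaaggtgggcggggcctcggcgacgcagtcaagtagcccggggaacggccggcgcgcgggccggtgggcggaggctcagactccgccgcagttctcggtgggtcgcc
Herpud1: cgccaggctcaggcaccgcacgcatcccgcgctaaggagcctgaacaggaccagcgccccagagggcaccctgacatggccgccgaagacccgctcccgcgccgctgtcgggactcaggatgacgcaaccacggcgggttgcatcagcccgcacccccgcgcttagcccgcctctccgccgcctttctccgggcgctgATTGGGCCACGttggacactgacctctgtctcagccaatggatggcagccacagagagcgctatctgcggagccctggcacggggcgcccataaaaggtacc
The elements of the other matched genes are written in the direction of the motif, with its fixed letters in capitals and its free bases in lower case. They show how the free bases differ between genes.
Hsp90b1, nearer the start: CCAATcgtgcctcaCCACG
Hsp90b1, farther from the start: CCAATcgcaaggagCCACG
Canx: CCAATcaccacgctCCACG
Dnajc3: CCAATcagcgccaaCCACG
Pdia6: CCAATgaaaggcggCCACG
Syvn1: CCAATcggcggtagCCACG
Derl3: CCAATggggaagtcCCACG
Dnajb11: ATTGGcCCACG

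Library totals ran from 8933307 to 17447524 counts in liver and from 9794683 to 18057936 in eWAT. Levels are given as normalised CPM, counts scaled to a common library size (CPM) after correction by edgeR's TMM factors within each tissue, and a gene was called at a Benjamini-Hochberg adjusted p under 0.05 in the quasi-likelihood test of edgeR. The liver library Veh HPD replicate 4, which lay apart from its group in the study's principal component analysis, was left out, so liver tests used 15 libraries with 3 in Veh HPD. Of the 33 genes, 23 in that library lay within the range of the other liver libraries of all groups, 2 above it and 8 below it. Within the range of the other 3 Veh HPD libraries lay 11 of the 33. Defining markers fitted the labelled tissues: 4 adipocyte genes (Adipoq, Plin1, Lep, Cidec) summed to 9478 CPM or more in every eWAT library and to at most 11.3 CPM in liver, while 5 hepatocyte genes (Alb, Apoa1, Ttr, Cps1, Serpina1a) summed to 31380 CPM or more in every liver library and to at most 88.9 CPM in eWAT. Some libraries held transcripts of other tissues. The eWAT library Cort HPD replicate 4 had 15823.5 CPM over 6 epididymis and testis genes, against at most 10.9 CPM in any other, and the liver library Veh HPD replicate 1 had 88.4 CPM over 5 exocrine pancreas genes, against at most 11.3 CPM in the other 14 liver libraries tested. The left-out Veh HPD replicate 4 had 116.4 CPM over the pancreas genes, and its hepatocyte sum of 31380 CPM was the lowest in liver. In bulk tissue, fewer cells of a type and less RNA per cell cannot be told apart.

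Within a liver group some ER genes differed widely between mice, and several had their highest levels in the same libraries. In Veh NPD, the ratio of the highest to the lowest library had a median of 1.51 over the 33 genes. Over the 15 chaperones and folding enzymes it was 1.43. Creld2, Derl3 and Syvn1, given below, lay well above these medians. Hspa5, the central ER chaperone, had 1780.3, 1701, 1028 and 1073 CPM in Veh NPD. Creld2, an ER disulfide isomerase induced by stress, had 85.4, 78.8, 24.6 and 23.5 CPM there. Veh NPD replicates 1 and 2 thus lay well above replicates 3 and 4 for both genes. Derl3, a membrane protein of the degradation channel, had 8.13, 9.02, 1.64 and 0.253 CPM in the same libraries. Syvn1, the ubiquitin ligase HRD1, had 84.2, 72.1, 39.9 and 25.3 CPM. In Veh NPD, replicates 1 and 2 were the pair of highest libraries for 8 of the 15 chaperones and folding enzymes and for 14 of the 33 genes. Hsp90b1, Calr, Canx, Pdia6 and Herpud1, which have an element in their windows, had other pairs. In Cort NPD, replicate 3 was highest for 11 of the 15, with Hspa5 at 1988 CPM against 972, 1099.9 and 1189.5. Veh HPD replicate 1, the tested library with the pancreas transcripts, was highest in its group for 14 of the 15, and the part of those transcripts in its levels was not tested. Shares of all genes with the same highest libraries were not counted, so these counts are not shown to be particular to the list.

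**Figure D1:**
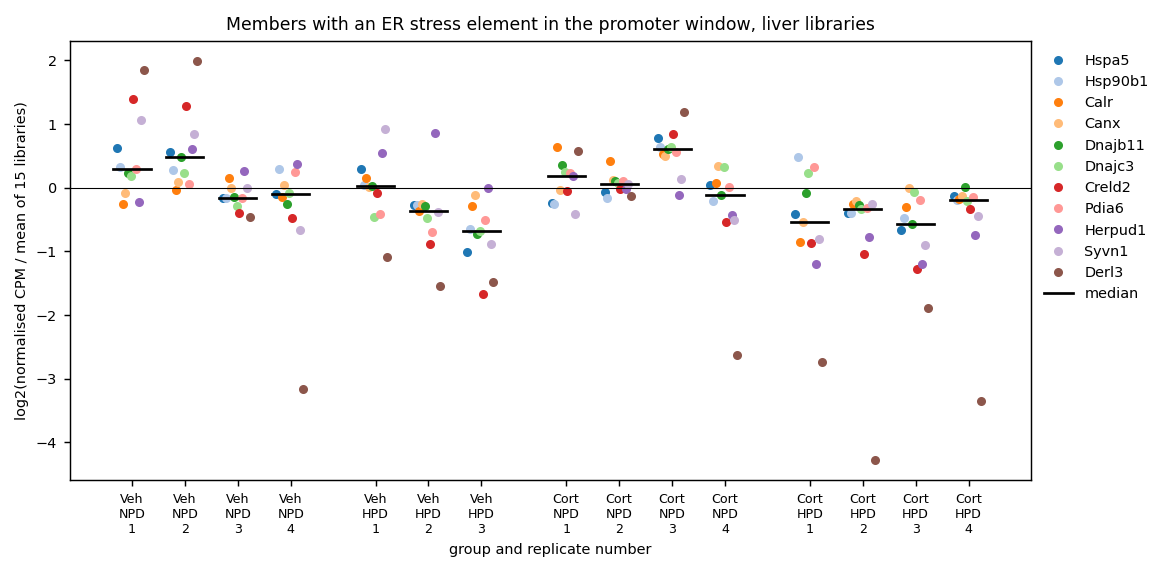
Liver levels of the 11 genes with an ERSE or ERSE-II match in the promoter window. The y axis is log2 of normalised CPM over the gene's mean across the 15 libraries, the x axis gives group and replicate number, points are genes and black bars are medians over genes. The medians reach 0.29 and 0.48 in Veh NPD replicates 1 and 2 and 0.61 in Cort NPD replicate 3, and all 4 Cort HPD libraries have medians from -0.57 to -0.19.

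Across the 11 genes with an element, the median deviation from the gene's own liver mean (log2 scale) was 0.29, 0.48, -0.15 and -0.10 in Veh NPD, 0.03, -0.37 and -0.68 in Veh HPD, 0.18, 0.05, 0.61 and -0.12 in Cort NPD, and -0.53, -0.34, -0.57 and -0.19 in Cort HPD. The Cort HPD libraries were all below the mean, while each other group had libraries on both sides of it. The 17 matched genes without an element were also below it in all 4 Cort HPD libraries, with medians of -0.40, -0.16, -0.26 and -0.15, and their medians in the other liver libraries lay between -0.20 and 0.21. In eWAT the spread was smaller: over the 10 genes with an element and counts in every library, library medians lay between -0.23 and 0.29, and the highest was Cort HPD replicate 4. These are descriptions of the libraries and were not tested.

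In liver of cort-treated mice, HPD lowered 6 of the 33 genes relative to NPD and raised none. They were the lectin chaperone Calr, the disulfide isomerase P4hb, the liver transcription factor Creb3l3, the degradation genes Herpud1 and Sel1l, and the translocon-associated protein Ssr1. These are 18.2% of the list in the lower direction, against 2.80% of all 12391 liver genes tested, and 0 in the higher direction, against 3.08%. The median log2 fold change of the 33 genes was -0.30, with 25 below 0, where the median of all genes tested was -0.01 and 51.0% of them lay below 0. Chaperones and folding enzymes had a median of -0.45, with 14 of 15 below 0.

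Calr, which holds glycoproteins in the ER until they fold, had 635, 549, 591 and 429 CPM in Cort NPD and 226, 341, 331 and 363 CPM in Cort HPD. All Cort HPD libraries lay below all Cort NPD libraries. The log2 fold change was -0.81 ± 0.17 (SE, n = 4 and 4, edgeR adjusted p = 0.00755). P4hb, the catalytic protein disulfide isomerase, had 614, 685, 713 and 715 CPM in Cort NPD. In Cort HPD it had 527, 457, 529 and 483 CPM, again without overlap. Its log2 fold change was smaller, -0.45 ± 0.13 (edgeR adjusted p = 0.0447). Of the 13 chaperones and folding enzymes that were not called, Dnajb9, a cofactor of Hspa5 that restrains Ern1, had a log2 fold change of 0.31, and the others ran from -0.98 in Creld2 to -0.15 in Hsp90b1. Hspa5 itself had 865, 879, 728 and 1053 CPM in Cort HPD, and its difference of -0.58 ± 0.27 did not pass the test (edgeR adjusted p = 0.224), with Cort NPD replicate 1 at 972 CPM inside the Cort HPD range.

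Herpud1, an ER membrane protein that helps to assemble the degradation complex, had 307, 267, 250.3 and 201 CPM in Cort NPD. It had 118, 158, 119 and 161 CPM in Cort HPD, below every Cort NPD library. The log2 fold change was -0.89 ± 0.20 (edgeR adjusted p = 0.0101). Sel1l, the adaptor that holds the ligase Syvn1 in that complex, had 152, 150.2, 174 and 169.8 CPM in Cort NPD and 79.2, 102, 93.9 and 103 CPM in Cort HPD. Its groups were apart as well, with a log2 fold change of -0.77 ± 0.18 (edgeR adjusted p = 0.0134). Syvn1 itself was at -0.42 ± 0.42 and was not called. Derl3 had the most negative estimate of the list, -3.09 ± 1.04, but was not called (edgeR adjusted p = 0.104), with 3.38, 2.07, 5.14 and 0.364 CPM in Cort NPD and 0.339, 0.116, 0.612 and 0.223 CPM in Cort HPD.

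Creb3l3 (CREBH), a membrane-bound transcription factor of liver that is activated by cleavage, had 250.4, 285, 268 and 207 CPM in Cort NPD. In Cort HPD it had 164, 169, 175 and 179 CPM, with a log2 difference of -0.56 ± 0.17 (edgeR adjusted p = 0.0498). Ssr1, a subunit of the complex beside the protein-conducting channel, had 54.5, 54.6, 61.5 and 63.5 CPM in Cort NPD and 35.1, 42.6, 45.0 and 46.2 CPM in Cort HPD. Its log2 fold change was -0.47 ± 0.14 (edgeR adjusted p = 0.0498). Both genes had Cort HPD libraries below all Cort NPD libraries. The calls of P4hb, Creb3l3 and Ssr1 stood close to the threshold: 13, 12 and 14 of the 15 fits without 1 library lost them, and 3 genes remained called at the fewest, whereas Calr, Herpud1 and Sel1l passed in all 15. With all 16 liver libraries the call of Herpud1 was lost (adjusted p = 0.056) and 2 genes were called. Hepatocyte markers moved in the opposite direction, from 84230.2 to 106698 CPM in Cort NPD and from 123988 to 225712 CPM in Cort HPD, and 3 red blood cell genes from between 1093 and 2722 CPM to between 4051 and 5953 CPM. The part of these shifts in the result was not tested. With library totals in place of TMM factors the median of all genes moved to -0.18 and that of the 33 genes to -0.50, with 29 below 0.

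**Figure D2:**
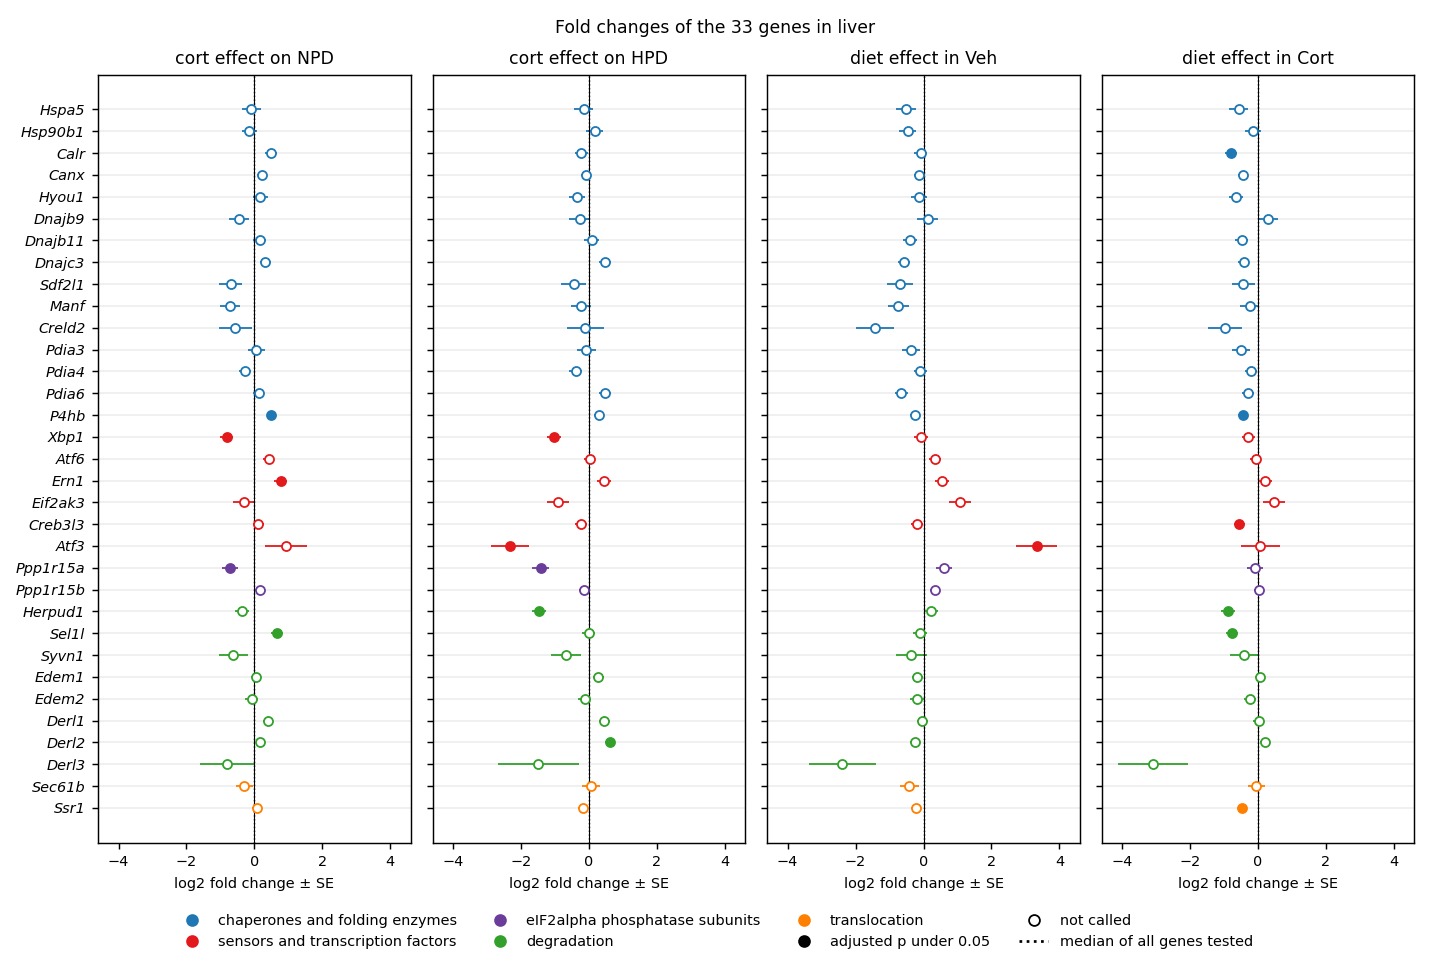
Log2 fold changes with standard errors of the 33 genes in the 4 liver comparisons, coloured by role. Filled points passed the adjusted p threshold, open points did not, and the dotted line is the median of all genes tested. In the panel of the diet effect in Cort, 14 of the 15 chaperones and folding enzymes lie left of 0, and 6 genes of the list are called, all lower.

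In liver of veh-treated mice, HPD changed 1 gene of the list by the test, the stress transcription factor Atf3, which was higher. That is 3.03% of the list in the higher direction, against 0.105% of all genes, and 0 in the lower direction, against 0.0646%. At an unadjusted p under 0.05, 10 of the 33 genes passed, against 9.4% of all genes, DESeq2 called 2 (Atf3 higher and the disulfide isomerase Pdia6 lower) and limma voom called 0. Shares of all genes called were computed for the main edgeR fits only. Counts by other tools, here and below, have no such share beside them. Atf3 had 1.42, 0.53, 0.692 and 0.253 CPM in Veh NPD and 4.85, 15.7 and 2.09 CPM in Veh HPD, so the groups were apart but the Veh HPD mice differed widely. Its log2 fold change was 3.33 ± 0.61 (n = 4 and 3, edgeR adjusted p = 0.0474). Without Veh HPD replicate 2, the library at 15.7 CPM, it was 2.22 with an adjusted p of 0.152, and the call was lost in 11 of 15 fits that left out 1 library. The library left out of the tests, which also held pancreas transcripts, had 42.8 CPM.

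The chaperones were mostly at lower estimates on HPD in veh-treated liver too. Their median log2 fold change was -0.40, with 14 of 15 below 0, and that of the whole list was -0.19, with 25 of 33 below 0, where 49.6% of all genes lay below 0. None of the 15 was called. Pdia6, which forms disulfide bonds and keeps Ern1 in check, had 543, 463, 397 and 526 CPM in Veh NPD and 334, 273 and 313 CPM in Veh HPD, below every Veh NPD library, with a log2 fold change of -0.65 ± 0.18 (edgeR adjusted p = 0.184). Dnajc3 (p58IPK), a cochaperone of Hspa5, had 344, 356, 249 and 287 CPM in Veh NPD. It had 220.3, 218 and 189 CPM in Veh HPD, with a log2 difference of -0.56 ± 0.18 (edgeR adjusted p = 0.248). Creld2 had 30.8, 17.6 and 10.2 CPM in Veh HPD, with replicate 1 above 2 of the Veh NPD libraries, and its estimate of -1.44 ± 0.56 was not called (edgeR adjusted p = 0.435). Without Veh HPD replicate 1, which held pancreas transcripts, the chaperone median was -0.59 with 15 of 15 below 0. Without Veh HPD replicate 2 it was -0.41 with 12 of 15 below 0, and without replicate 3 it was -0.30 with 13 of 15. The comparison in veh-treated mice and that in cort-treated mice used different libraries, and 14 of the 15 chaperones lay below 0 in both. Genes of the same mice are not independent, so counts of genes below 0 are no measure of replication. The mean log2 level of the 15 chaperones had an SD of 0.25 between replicates, pooled over the liver groups.

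Sensors and eIF2alpha phosphatase subunits had mostly positive estimates for HPD in veh-treated liver. Eif2ak3 had 4.26, 2.33, 5.19 and 3.89 CPM in Veh NPD and 12.6, 5.27 and 6.75 CPM in Veh HPD, with a log2 difference of 1.07 ± 0.33 that did not pass the test (edgeR adjusted p = 0.232). Ern1 was at 0.54 ± 0.21, Atf6 at 0.34 ± 0.18 and Xbp1 at -0.07 ± 0.21, none of them called. Ppp1r15a (GADD34), the stress-induced subunit that lets translation resume, was at 0.61 ± 0.24 and the constitutive subunit Ppp1r15b at 0.33 ± 0.15, also not called.

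The other members were not called for either diet effect in liver. Hyou1, an exchange factor of Hspa5, was at -0.65 ± 0.22 under cort and -0.13 ± 0.24 under veh. The disulfide isomerase Pdia3, the partner of Calr and Canx, was at -0.51 ± 0.26 and -0.37 ± 0.28. Edem1 and Edem2, lectins that pass misfolded glycoproteins to degradation, were at 0.06 ± 0.14 and -0.23 ± 0.18 under cort. Sec61b, a subunit of the protein-conducting channel, was at -0.06 ± 0.25 under cort. Among the genes with promoter windows, the 11 with an element had a median log2 fold change of -0.48 for HPD under cort, with 11 of 11 below 0, and the 17 without had -0.20, with 11 of 17 below 0. Under veh the medians were -0.46, with 10 of 11 below 0, and -0.18, with 12 of 17 below 0. Element and role overlap: the 11 genes hold 8 of the 13 chaperones and folding enzymes with a window, and no sensor, phosphatase subunit or translocation gene. Among chaperones with a window and no element, the values under cort were 0.31 (Dnajb9), -0.44 (Sdf2l1), -0.51 (Pdia3), -0.20 (Pdia4) and -0.45 (P4hb). The comparison by element is a description and was not tested.

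The difference of the diet effect between cort and veh was tested as an interaction in liver. No gene of the list was called by edgeR in either direction, against 0.0565% of all genes in each, and 5 of the 33 had an unadjusted p under 0.05, against 12.1% of all genes. For other fits, shares of all genes called were not computed. DESeq2 called 2, Atf3 and Herpud1, edgeR without a filter on low counts called 1, Herpud1, and limma voom called 0. For Herpud1 the interaction was -1.11 ± 0.29 on the log2 scale (edgeR adjusted p = 0.129), from a diet effect of 0.23 ± 0.21 in Veh and -0.89 ± 0.20 in Cort. For Calr it was -0.72 ± 0.25 (edgeR adjusted p = 0.252), and for Sel1l -0.66 ± 0.26 (edgeR adjusted p = 0.318). The calls under cort are therefore not shown to be particular to cort-treated mice.

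On NPD, cort changed 5 of the 33 liver genes: P4hb, the sensor Ern1 and the adaptor Sel1l were higher, and Xbp1 and Ppp1r15a were lower. The 3 higher genes are 9.09% of the list, against 6.84% of all genes, and the 2 lower genes 6.06%, against 5.79%, so that the share of called genes was close to that of all genes. The median log2 fold change of the list was 0.06. Xbp1, the transcription factor activated by Ern1, had 177, 244, 169.7 and 112 CPM in Veh NPD and 98.9, 90.4, 101 and 108 CPM in Cort NPD. Every Cort NPD library lay below every Veh NPD library, with a log2 fold change of -0.82 ± 0.19 (edgeR adjusted p = 0.00729). Ern1 moved the other way, from 18, 16.2, 20.2 and 13.7 CPM in Veh NPD to 24.4, 22.8, 34.1 and 35.3 CPM in Cort NPD. Its groups did not overlap either, with a log2 fold change of 0.78 ± 0.20 (edgeR adjusted p = 0.011).

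P4hb had 431, 505, 468 and 522 CPM in Veh NPD, below all Cort NPD libraries, and a log2 fold change of 0.50 ± 0.13 (edgeR adjusted p = 0.0138). Sel1l had 119, 114, 104 and 71.1 CPM in Veh NPD, also below all Cort NPD libraries, and a log2 fold change of 0.66 ± 0.18 (edgeR adjusted p = 0.0171). For P4hb and Sel1l, this comparison and that of HPD under cort share the Cort NPD libraries, so their calls in the comparisons are not independent. Calr had a similar estimate, 0.50 ± 0.17, that did not pass (edgeR adjusted p = 0.0628), with Veh NPD replicate 3 at 452 CPM above Cort NPD replicate 4 at 429. Ppp1r15a had 6.47, 6.68, 7.01 and 9.8 CPM in Veh NPD and 5.69, 4.4, 3.55 and 4.43 CPM in Cort NPD. Its groups were apart but close, with a log2 fold change of -0.73 ± 0.23 (edgeR adjusted p = 0.0431), and the call was lost in 7 of 15 fits that left out 1 library. The call of P4hb was lost without Veh NPD replicate 1 (adjusted p = 0.0622), and that of Sel1l in 2 of 15 fits, with an adjusted p of 0.066 without Veh NPD replicate 4. Without Veh NPD replicate 4 or without Cort NPD replicate 3 the count of called genes fell from 5 to 3.

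On HPD, cort lowered Xbp1, Atf3, Ppp1r15a and Herpud1 in liver and raised Derl2. The 4 lower genes are 12.1% of the list, against 5.14% of all genes, and the single higher gene 3.03%, against 4.75%. Xbp1 had 193, 113 and 196 CPM in Veh HPD and 89.0, 81.1, 71.9 and 85.2 CPM in Cort HPD. The log2 fold change was -1.03 ± 0.21 (n = 3 and 4, edgeR adjusted p = 0.00257), so this gene was lower under cort on both diets, comparisons that share no library. Herpud1 had 397, 493 and 271 CPM in Veh HPD, above all Cort HPD libraries, and fell by 1.48 on the log2 scale, with an SE of 0.21 and an edgeR adjusted p of 0.000102. Ppp1r15a had 10.9, 15.02 and 8.44 CPM in Veh HPD and 2.88, 4.59, 5.28 and 4.23 CPM in Cort HPD. Its log2 fold change of -1.42 ± 0.25 passed as well (edgeR adjusted p = 0.000623).

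Atf3 had 1.86, 1.39, 1.07 and 1.63 CPM in Cort HPD, against the 4.85, 15.7 and 2.09 CPM in Veh HPD given above, and a log2 fold change of -2.32 ± 0.56 (edgeR adjusted p = 0.0131). Without Veh HPD replicate 2 it was -1.20 with an adjusted p of 0.165. This comparison and the diet effect in Veh share the Veh HPD libraries, so the Atf3 calls in them are not independent. Derl2, a membrane protein of the retrotranslocation channel, had 87.1, 85.0 and 105 CPM in Veh HPD and 155, 156, 145 and 113 CPM in Cort HPD. All Cort HPD libraries were higher, with a log2 fold change of 0.62 ± 0.15 (edgeR adjusted p = 0.0101). Its call was lost in 2 of 15 fits, with an adjusted p of 0.0618 without Veh HPD replicate 1, and also with library totals in place of TMM factors (adjusted p = 0.122) and with only the groups compared. Derl2 overlaps Mis12 on the other strand, as Ppp1r15a overlaps Tulp2, Syvn1 Mrpl49 and Manf Dcaf1, and whether the counting used strand is not given in the sources used here. Macrophage markers (4 genes) and plasma cell markers (5 genes, including Jchain and Mzb1) had lower sums under cort in liver, the macrophage ranges overlapping. The plasma cell sum ran from 7.11 to 26.2 CPM in veh libraries and from 3.47 to 6.97 CPM in cort libraries, and the macrophage sum from 92.2 to 167 CPM and from 41.1 to 114 CPM, over the libraries tested. Plasma cells are known for high Xbp1, and the part of these cells in its decrease was not tested.

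**Figure D3:**
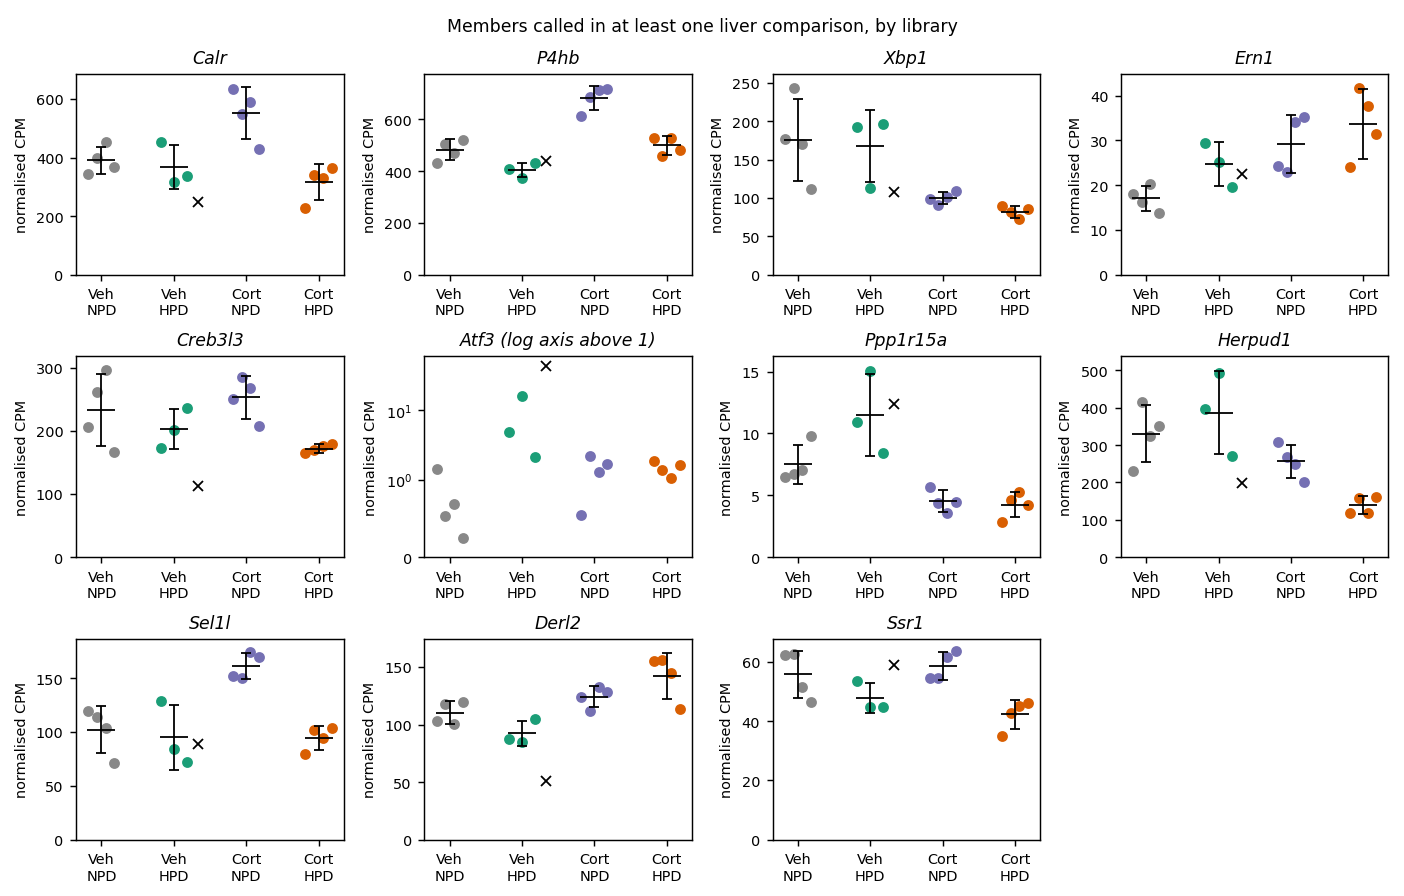
Liver levels in normalised CPM of the 11 genes called in at least 1 comparison. Points are libraries, horizontal bars are means with SD, crosses are the library left out (Veh HPD replicate 4), and the Atf3 axis is logarithmic above 1 without mean or SD. Calr, P4hb, Herpud1 and Sel1l are lower in all 4 Cort HPD than in all 4 Cort NPD libraries, and Xbp1 is lower in all 8 cort libraries than in the 7 veh libraries tested.

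In eWAT, cort on NPD raised the sensor Atf6, the phosphatase subunit Ppp1r15a and the degradation channel protein Derl1, and lowered none of the list. The 3 genes are 9.38% of the 32 tested, against 4.05% of 15187 genes in the higher direction, and 0 were lower, against 3.93%. The median log2 fold change of the list was -0.03, and none of the 15 chaperones and folding enzymes was called. Ppp1r15a had 7.9, 10.6, 8.53 and 4.75 CPM in Veh NPD and 18.5, 24.9, 18.8 and 14.3 CPM in Cort NPD. All cort libraries were above all veh libraries, with a log2 fold change of 1.27 ± 0.24 (n = 4 and 4, edgeR adjusted p = 0.000926). Atf6 had 31.3, 23.1, 22.3 and 25.5 CPM in Veh NPD and 42.8, 43.2, 35.2 and 50.01 CPM in Cort NPD, with a log2 difference of 0.74 ± 0.17 without overlap (edgeR adjusted p = 0.00428). Derl1 had 213, 225, 162 and 200 CPM in Veh NPD and 289, 262, 295 and 284 CPM in Cort NPD. It also had groups apart, with a log2 fold change of 0.50 ± 0.12 (edgeR adjusted p = 0.0104). Atf6 and Ppp1r15a passed in all 16 fits that left out 1 library, and Derl1 in all but the fit without Veh NPD replicate 3 (adjusted p = 0.0587).

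On HPD, cort changed no gene of the list in eWAT by edgeR, against 3.46% of all genes higher and 2.63% lower, with 8 genes at an unadjusted p under 0.05, against 18.9% of all genes. DESeq2 and limma voom with sample quality weights each called 1, Canx, the membrane-bound lectin chaperone, which was lower, and limma voom without weights called 0. Without Veh HPD replicate 4, edgeR called Canx too (adjusted p = 0.0456). Canx had 264, 236, 248 and 219 CPM in Veh HPD and 193, 201, 182 and 207 CPM in Cort HPD, with a log2 difference of -0.30 ± 0.11 (edgeR adjusted p = 0.117). Atf6 had 25.7, 31.1, 29.3 and 30.1 CPM in Veh HPD and 40.8, 41.8, 40.1 and 25.2 CPM in Cort HPD. In 3 Cort HPD libraries it was thus within the Cort NPD range, and the lowest value was that of replicate 4, the library with epididymis and testis transcripts. Ppp1r15a had 10.5, 18.5, 16.4 and 16.7 CPM in Veh HPD and 22.4, 17.5, 25.5 and 23.5 CPM in Cort HPD, with a log2 difference of 0.52 ± 0.23 (edgeR adjusted p = 0.213).

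Diet changed no gene of the list in eWAT by edgeR. In Veh the background was 0.0132% of genes higher and 0.0461% lower, and 6 genes of the list had an unadjusted p under 0.05, against 8.03% of all genes. DESeq2 called 2, Ppp1r15a higher and Manf lower, and limma voom called 0. Without Cort HPD replicate 4, edgeR called Manf (adjusted p = 0.0475). Manf, a secreted ER protein that binds Hspa5, had 94.9, 112, 89.8 and 65.0 CPM in Veh NPD and 57.3, 56.7, 59.2 and 50.2 CPM in Veh HPD. The groups did not overlap, with a log2 fold change of -0.70 ± 0.20 (edgeR adjusted p = 0.254). In Cort the background was 0.204% higher and 0.283% lower, 3 genes of the list had an unadjusted p under 0.05, against 9.81% of all genes, and DESeq2 and limma voom called 0. For the interaction of diet and cort the background was 0.00658% in each direction, 4 genes had an unadjusted p under 0.05, against 5.16% of all genes, and DESeq2 and limma voom called 0. Cort HPD replicate 4 was highest in its group for 12 of the 15 chaperones and folding enzymes and for 18 of the 33 genes. Derl3 was at 25.3 CPM in it against 0, 0.737 and 1.39 CPM in the other Cort HPD libraries, and the part of its epididymis and testis transcripts was not tested. Red blood cell markers were at 9793 to 20467 CPM in eWAT of Cort HPD mice against 2883 to 7288 CPM in the other groups.

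**Figure D4:**
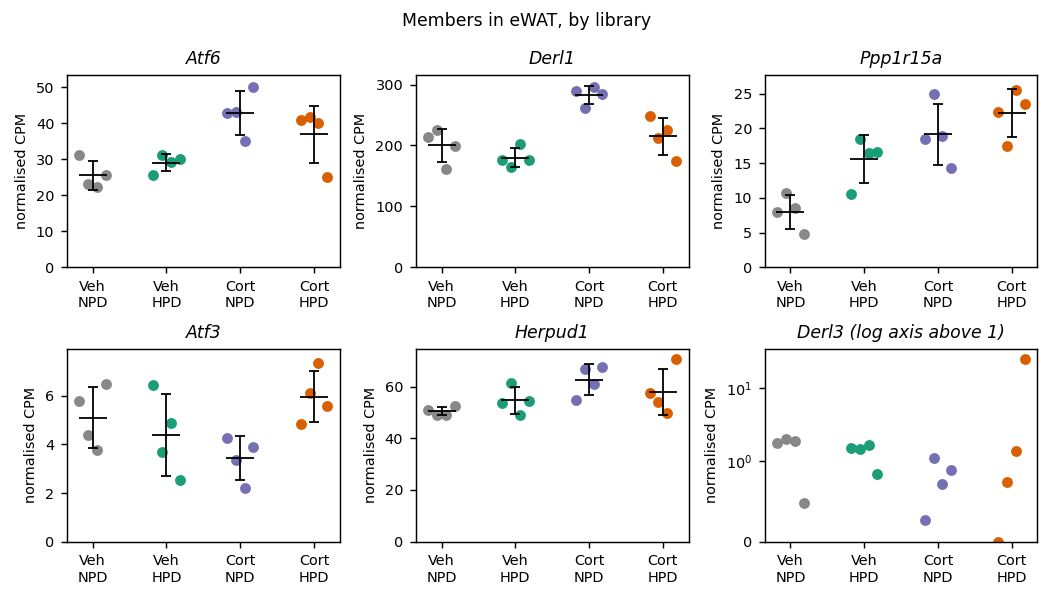
eWAT levels in normalised CPM of the 3 genes called there (Atf6, Derl1, Ppp1r15a), of 2 genes whose cort effect differed between tissues (Atf3, Herpud1) and of Derl3. Points are libraries, horizontal bars are means with SD, and the Derl3 axis is logarithmic above 1 without mean or SD. Ppp1r15a is higher in every Cort NPD than in every Veh NPD library, and the highest Derl3 point, 25.3 CPM, is Cort HPD replicate 4.

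The cort effect was compared between liver and eWAT in a joint model of 31 libraries. On NPD the model called 3 of the 33 genes, of which 2 had counts enough for a test in both tissues, against 3.85% of 16482 genes in either direction. For Ppp1r15a, lower in liver and higher in eWAT, the liver minus eWAT difference was -1.96 ± 0.35 on the log2 scale (edgeR adjusted p = 0.000553). For P4hb it was 0.63 ± 0.18 (edgeR adjusted p = 0.0413), from 0.50 in liver and -0.09 in eWAT, and the call was lost in 20 of 31 fits that left out 1 library, in which the fewest genes called was 1. The third was Creb3l3, which entered the model through its liver level alone. Its eWAT libraries were at 0 CPM in all 8 cort-treated mice and at most 1.28 CPM in the others, so its call is no test of a difference between tissues and no size is given. On HPD the cort effect differed for 3 genes, against 3.12% of all genes. These were Ppp1r15a (-1.98 ± 0.35, edgeR adjusted p = 0.00068), Herpud1 (-1.61 ± 0.25, edgeR adjusted p = 9.65e-05) and Atf3 (-2.81 ± 0.66, edgeR adjusted p = 0.0112). Herpud1 had 53.8, 61.5, 49.0 and 54.4 CPM in eWAT of Veh HPD mice and 57.5, 54.0, 49.9 and 70.6 CPM in Cort HPD, ranges that overlapped. The difference of Atf3 rested on liver Veh HPD replicate 2, without which it was -1.71 with an adjusted p of 0.172. The diet effect in Cort differed between tissues for 0 of the 33 genes by edgeR, against 1.23% of all genes, with 7 at an unadjusted p under 0.05, against 15.3% of all genes. DESeq2 called 2, Herpud1 and Derl3, and limma voom called 0.

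**Figure D5:**
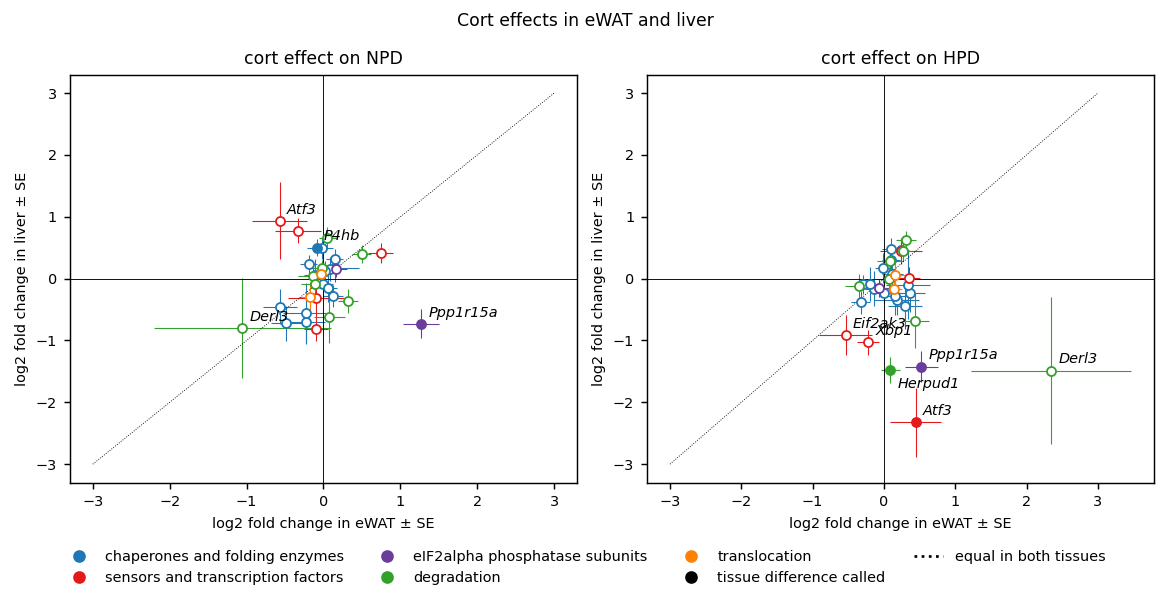
Log2 fold changes of cort against veh in eWAT (x axis) and liver (y axis) with standard errors, on NPD and on HPD, for the 32 genes tested in both tissues. Filled points have a liver minus eWAT difference with an adjusted p under 0.05, and the dotted line marks equal effects. Ppp1r15a lies below 0 in liver and above 0 in eWAT on both diets.

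Other genes of the pathway, from 7 lists, were read in the same fits. In the PERK and ATF4 branch (12 genes, 11 tested in liver), Ddit3 (CHOP), a transcription factor of prolonged stress, was raised by HPD in veh-treated liver, from a mean of 7.82 CPM to 27.7 CPM, with a log2 difference of 1.81 ± 0.35 (edgeR adjusted p = 0.0482). It was the only gene of that list called there, where 0.105% of all genes were higher, and 10 of the 11 were above 0, where 49.6% of all genes lay below 0. The Ddit3 call stood close to the threshold, rested on 3 Veh HPD mice and was not refitted. Bbc3, a pro-apoptotic gene, was raised by HPD under cort by 0.72 on the log2 scale. No other gene of the list was called there, where 3.08% of all genes were higher. Cort on HPD lowered 4 of the 11, against 5.14% of all genes: Ddit3 at -1.97 ± 0.35, Chac1 at -1.91 ± 0.43, Nupr1 at -2.88 ± 0.78 and Trib3 at -1.90 ± 0.55 (edgeR adjusted p at most 0.0479). These are the same Veh HPD libraries, with 3 mice. On NPD, cort raised 2 genes of the list in liver, against 6.84% of all genes: Asns, the asparagine synthetase, at 2.01 ± 0.44, and the transcription factor Atf5 at 0.65 ± 0.18. In eWAT, cort raised Stc2, a secreted glycoprotein, by 1.22 ± 0.21 on NPD and 1.31 ± 0.21 on HPD, and called no other gene of the list.

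In liver, cort on NPD raised Uggt1, the sensor of glycoprotein folding that returns substrates to Calr and Canx, by 0.74 ± 0.19, and HPD lowered it under cort by a log2 fold change of -0.96 ± 0.19. The oligosaccharyltransferase subunits Rpn2 and Stt3b followed the same order, 0.72 ± 0.14 and 0.68 ± 0.13 for cort on NPD and -0.60 ± 0.13 and -0.48 ± 0.13 for HPD under cort. These comparisons share the Cort NPD libraries. Of all liver genes tested, 6.84% were higher and 5.79% lower for cort on NPD, and 4.75% and 5.14% for cort on HPD. For HPD under cort the shares were 3.08% and 2.80%. Whether the calls in the lists of this paragraph exceed these shares was not tested. Among 18 other folding genes, cort on NPD also lowered Txndc5 and Cnpy2, cort on HPD raised Fkbp11 and Dnajc1 and lowered Pdia5 and Txndc5, and HPD under cort raised Dnajc1. Among 25 other translocation and glycosylation genes, cort on NPD lowered the signal peptidase subunits Spcs3 and Sec11a, and cort on HPD raised Dad1. Among 15 other degradation genes, cort on NPD raised 2, among them Os9, and lowered 2, Selenos and Selenok, and no other liver comparison called a gene. Of 13 genes of ER to Golgi transport (12 tested in liver), the cargo receptor subunits Mcfd2 and Lman1 were higher under cort on NPD, and Mcfd2 on HPD. Of 16 cytosolic and mitochondrial chaperones, Hspa8 was lower under cort on NPD in liver, and none was called for the diet effects. None of 8 other sensors and their proteases was called in liver by edgeR, where at most 1 had an unadjusted p under 0.05 in any comparison.

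In eWAT the calls outside the list of 33 were all higher and all under cort. Of all eWAT genes tested, 4.05% were higher for cort on NPD and 3.46% for cort on HPD. Hspb1, a small heat shock protein of the cytosol, was at 304 CPM on average in Cort NPD against 92.0 in Veh NPD, with a log2 difference of 1.72 ± 0.18, and at 1.70 ± 0.18 on HPD. The ubiquitin-conjugating enzyme Ube2g2 was at 0.66 ± 0.13 and 0.55 ± 0.13 and the transcription factor Creb3 at 0.63 ± 0.16 and 0.59 ± 0.16 on NPD and HPD. On NPD, the test also called Srprb, Sar1b and Mcfd2, which were not called on HPD, but no interaction was called in eWAT for any gene of these lists.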

How the data were processed

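RNA of liver and eWAT was measured by 3′ tag sequencing in 32 libraries. The authors deposited raw counts per gene for 47643 genes. The submitters' processing notes name build GRCm38, R 4.0.3 and limma, and the aligner and counter are not given in the sources used here. Groups came from the sample labels. For each tissue, edgeR 4.0.16 in R 4.3.3 was fitted to all groups (quasi-likelihood, robust, TMM factors) after filterByExpr (minimum count 10, minimum total 15), with Benjamini-Hochberg adjustment over all genes tested and a threshold of 0.05. The liver library Veh HPD replicate 4 was left out, as the study did. Tissues were compared in 1 joint fit. Alternatives used DESeq2 1.42.0, limma 3.58.1 (voom) and other scalings, filters and sample sets. For these alternatives, only members called were counted, and not the share of all genes. Named are members called in a comparison (up to 8 with per-library levels) and up to 3 called genes per direction in each other list, by smallest p. Other names were chosen after their values were seen. The members and lists were chosen with earlier results of these data known. Totals from 8933307 to 18057936 counts leave genes of a few counts imprecise. Replicates are libraries numbered within a group. The p-values weigh differences between groups against the spread between replicates, estimated over all groups of a fit. The model was tested on simulated data. One result of a pathway list is not reported here.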

Additional observations from a re-analysis of the deposited data

Results flagged for a closer look

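Of 229 groups of 4 libraries, 16 had a library far from the other 3, where chance alone marks about 1 in 20 groups. In liver these were Hsp90b1 in Veh NPD replicate 3 (622.4 CPM, low) and in Cort NPD replicate 3 (1077.2 CPM, high), Pdia4 in Cort NPD replicate 4 (19.9 CPM, low), Atf6 in Cort HPD replicate 4 (51.3 CPM, high), Ppp1r15a in Veh NPD replicate 4 (9.80 CPM, high) and Derl1 in Cort NPD replicate 1 (100.6 CPM, low). In eWAT they were Dnajc3 in Veh NPD replicate 1 (204.4 CPM, high), Creld2 in Cort NPD replicate 4 (11.4 CPM, low), Sel1l in Veh NPD replicate 1 (119.4 CPM, low), Syvn1 in Veh HPD replicate 3 (27.2 CPM, high), Edem1 in Cort NPD replicate 3 (59.6 CPM, low), Eif2ak3 in Cort HPD replicate 1 (7.50 CPM, high) and Derl3 in Veh NPD replicate 4 (0.482 CPM, low). The eWAT library Cort HPD replicate 4, which held epididymis and testis transcripts, accounted for 3 more, Pdia6 (281.2 CPM, high), Atf6 (25.2 CPM, low) and Derl3 (25.3 CPM, high).

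The cort effect differed between liver and eWAT by the joint edgeR test for P4hb (0.63 on the log2 scale, liver minus eWAT) and Ppp1r15a (-1.96) on NPD, and for Atf3 (-2.81), Ppp1r15a (-1.98) and Herpud1 (-1.61) on HPD. The model also called Creb3l3 on NPD, but the gene was near 0 in eWAT, so this is no test of a difference, and its fitted value of 5.66 depends on the prior count and is no bound. In the liver library left out of the tests, which held pancreas transcripts, Dnajb9 (33.1 CPM) and Atf3 (42.8 CPM) were above every other liver library.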

How the results depend on the processing

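None of the refitted calls of the 33 genes changed its direction under any alternative, and the calls of genes outside that list were not refitted. The count of called genes moved by over 1.5 times as follows. For cort on NPD in liver (5 genes) it was 3 with library totals and 8 with limma voom and quality weights, and from 3 to 7 when 1 library was left out. For HPD under cort in liver (6 genes) it was 3 with RLE size factors, 2 with all 16 liver libraries, and from 3 to 7 with 1 library left out. For HPD under veh in liver (1 gene) it was 2 with DESeq2 and 0 with limma voom, with or without quality weights, without the filter on low counts, with all 16 liver libraries and with only the groups compared, and from 0 to 1 with 1 library left out. The liver interaction (0 genes) gave 2 with DESeq2 and 1 without the filter. In eWAT, cort on HPD (0 genes) gave 1 with DESeq2 and 1 with quality weights, HPD under veh (0 genes) gave 2 with DESeq2, and both ranged from 0 to 1 with 1 library left out. The tissue difference of cort on NPD (3 genes) gave 5 with DESeq2, 1 without the filter, and from 1 to 4 with 1 library left out, and that of HPD under cort (0 genes) gave 2 with DESeq2, 3 with library totals, and from 0 to 1. Causes were not tested.

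A replicate block gave 4, 5, 1, 5 and 0 called genes in the liver comparisons and 3 and 0 for cort on NPD and HPD in eWAT, each within 1.5 times. The numbers share no stated origin. Same-numbered libraries had a median correlation of deviations of -0.01 in eWAT and -0.02 in liver, with single pairs up to 0.25 and 0.16. A median over pairs cannot exclude a shared origin for some numbers. Alternatives on the medians of the gene groups were chosen after seeing the data. The chaperone median for HPD under cort lay from -0.61 to -0.42, and with 1 library left out from -0.49 to -0.30. For HPD under veh it lay from -0.48 to -0.36, and from -0.59 to -0.30. Counts of a few reads, as for Derl3 and Atf3, limit the precision of these genes.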
